A study of Drosophila melanogaster with 12 samples.

Results

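The genes described here are named for proteins of the cytosolic ribosome of *Drosophila melanogaster*. They are every gene whose symbol in the array's annotation begins with RpL or RpS followed by a digit. The 37 genes found were drawn from 11982 named genes, with 21 named for the large (RpL) and 16 for the small (RpS) subunit. RefSeq's gene table for assembly Release 6 plus ISO1 MT lists 88 protein-coding genes with such symbols. All 37 were matched there and the other 51 were not analysed here. Of the 37 genes, 23 carry a plain name such as RpL32, and 14 carry a suffix (a lower-case letter, a hyphenated number or "-like") that marks a second gene copy or a relative of a ribosomal protein. Each gene was read on the probe set with its highest mean log2 intensity over the arrays.

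The cytosolic ribosome translates nuclear mRNAs and is built from ribosomal RNA and one copy each of most ribosomal proteins, so that the proteins are needed in matched amounts. Their mRNAs are among the most abundant of a cell, and in flies the loss of one copy of many of these genes gives the Minute phenotype of slow growth and short bristles. Several Drosophila ribosomal proteins have a second copy that is known for expression in the germline, among them RpL22-like in testis and RpS5b in ovary.

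Total RNA of adult flies was hybridised to 12 oligonucleotide arrays, 3 for each of 4 groups: the Canton S wild type on sucrose, Canton S on sucrose with 0.3% phenobarbital, the DHR96 mutant on sucrose and the DHR96 mutant on sucrose with 0.3% phenobarbital. All flies had been starved overnight. DHR96 (gene Hr96) encodes a nuclear receptor, and phenobarbital is a drug used to induce detoxification genes. The titles' E25 was read as the DHR96 mutant by elimination, and the allele, sex and age of the flies are not in the labels. Nothing there says that replicate arrays came from separate cultures. The p-values therefore measure the spread between arrays, which may be technical.

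The median intensity of an array was 38.5 to 47.5 and its largest 48233 to 52446. Probe sets with a log2 intensity under 4 made up 44.4% to 45.6% of each array and are called dim here. The Hr96 probe set, whose place relative to the mutation is not given, averaged log2 8.39 ± 0.17 (SD, n = 3) in wild type on sucrose and 8.53 ± 0.29 on phenobarbital. In the mutant it was brighter, at 9.99 ± 0.07 on sucrose and 10.24 ± 0.06 on phenobarbital, so it gives no check by absence. Limma was fitted to all 18769 probe sets. A gene was called where its p, adjusted by Benjamini-Hochberg over all of them, was under 0.05 and its change was at least 1.5-fold. Log2 is used for levels and changes alike. Where genes are called bright or dim, or ranked by brightness, this describes their probe sets and not the amount of their mRNA, since brightness depends on the probes.

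The plain-named ribosomal proteins were uniformly bright and stayed nearly level across genotype and diet. Their mean log2 intensities over the arrays ran from 14.04 (RpL17) to 15.61 (RpL41), and 20 of the 23 were among the 100 brightest probe sets. The difference between a gene's highest and lowest array was 0.11 to 0.39. The median within-group SD was 0.062 (range 0.029 to 0.086), against 0.128 over all probe sets and 0.077 over the 110 other probe sets at least as bright as the dimmest of them. Intensities this close to an array's largest value can be compressed, which was not tested.

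**Figure D1:**
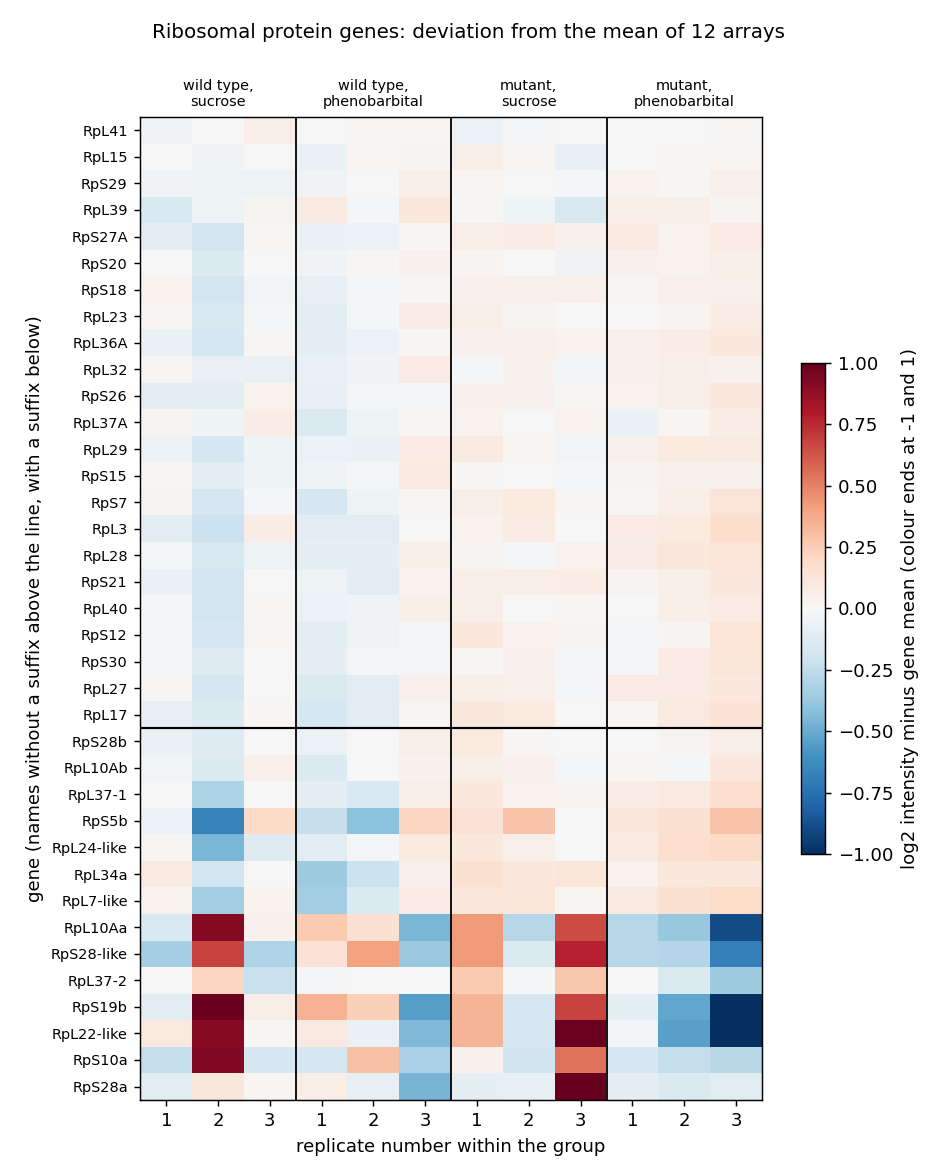
Heat map of the 37 ribosomal protein genes (rows) on the 12 arrays (columns, grouped by genotype and diet), with colour giving each array's log2 intensity minus the gene's mean over the 12 arrays. The plain-named genes vary little, while the dimmest suffix-named genes form a block with wild-type sucrose replicate 2 high and mutant phenobarbital replicate 3 low.

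No ribosomal protein gene passed the threshold with phenobarbital in wild-type flies. Limma called 0 of the 37 higher and 0 lower, where 2.27% of all probe sets were called higher and 2% lower, and 0 of the 37 had an unadjusted p under 0.05, against 2619 of all 18769 probe sets. The smallest adjusted p among the 37 was 0.4. At such shares few calls would fall among 37 genes, so the counts of 0 alone say little about them. The median change was 0.03 for the plain-named genes and 0.02 over all probe sets. The 95% intervals of all 23 plain-named genes lay within 1.5-fold, their ends reaching from -0.19 to 0.25.

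In the mutant, phenobarbital again gave 0 calls higher and 0 lower among the 37 genes by limma, against 3.08% and 1.53% of all probe sets. An unadjusted p under 0.05 was reached by 3 of the 37, each with a suffix in its name, and by 3300 of all probe sets. The median change was 0.03 for the plain-named genes and 0.00 over all probe sets. The 23 plain-named intervals again lay within 1.5-fold, from -0.13 to 0.24. Averaged over both genotypes, 0 of 37 were called, against 3.01% higher and 2.69% lower of all probe sets. There 3 of the 37 and 3931 of all probe sets had an unadjusted p under 0.05. At these shares the counts of 0 in the mutant and in the mean again say little.

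Among large-subunit proteins, RpL32 (rp49), the customary reference gene of fly expression studies, read log2 14.65, 14.56 and 14.56 in wild type on sucrose and 14.56, 14.60 and 14.72 on phenobarbital. In the mutant it read 14.62, 14.68 and 14.61 on sucrose and 14.68, 14.70 and 14.68 on phenobarbital. The wild-type groups overlapped, and the mutant groups were adjacent at this rounding. For wild type the RpL32 change with phenobarbital was 0.04 ± 0.04 (SE, 95% interval -0.05 to 0.14, limma adjusted p = 0.575). For the mutant it was 0.05 ± 0.04 (-0.05 to 0.14, adjusted p = 0.672).

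RpL41, a very short peptide of the large subunit, had the brightest probe set of all. Its within-group SD was 0.03, next to the smallest, that of RpS29 at 0.029. Its arrays read 15.58, 15.62 and 15.68 in wild type on sucrose and 15.62, 15.63 and 15.63 on phenobarbital, and 15.56, 15.60 and 15.61 in the mutant on sucrose and 15.61, 15.61 and 15.63 on phenobarbital. All 4 groups lay within one narrow band. On the drug it differed by 0.00 ± 0.03 (wild type) and 0.03 ± 0.03 (mutant).

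RpL39, which lines the exit tunnel of the nascent chain, gave the largest positive change with phenobarbital among plain-named genes. It read 14.77, 14.87 and 14.95 in wild type on sucrose against 15.01, 14.91 and 15.03 on phenobarbital, which overlap. The mutant read 14.93, 14.88 and 14.77 on sucrose against 14.99, 14.98 and 14.95 on phenobarbital, with every drug array above every sucrose array. The changes were 0.12 ± 0.06 (limma adjusted p = 0.402) and 0.11 ± 0.06 (adjusted p = 0.354), and their mean was 0.12 ± 0.04 (unadjusted p = 0.0175, adjusted p = 0.127). At the other end, RpL37A, a zinc-binding protein of the large subunit, differed by -0.08 ± 0.05 in wild type and -0.02 ± 0.05 in the mutant.

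Among small-subunit proteins, RpS29 was, on the probe set used, the one gene of the 37 whose wild-type groups did not overlap. It read 14.95, 14.94 and 14.94 on sucrose and 14.95, 14.99 and 15.05 on phenobarbital, parted only beyond this rounding, with a difference of 0.05 ± 0.02 (limma adjusted p = 0.4). Its other bright probe set read 14.47, 14.20 and 14.40 on sucrose and 14.32, 14.41 and 14.38 on phenobarbital. Those overlap, with a difference of 0.01 ± 0.06. In wild type 9.12% of the 10341 probe sets that are not dim lay wholly higher on the drug and 11.6% wholly lower. RpS15, which reaches the decoding site, differed by 0.06 ± 0.04 in wild type and 0.04 ± 0.04 in the mutant.

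In the mutant 8 genes lay wholly higher on phenobarbital (RpL3, RpL27, RpL28, RpL32, RpL36A, RpL39, RpS15 and RpS20) and 3 wholly lower (RpL10Aa, RpS28-like and RpS28a), where 26.2% and 17.8% of the probe sets that are not dim did so. The count of 8 of 37 was thus near the background share. None of the 37 lay wholly higher on the drug in both genotypes, for which the share of all probe sets was not counted.

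The proteins made as fusions with ubiquitin, RpS27A and RpL40, and RpS30, made as a fusion with a ubiquitin-like protein, did not stand apart on the drug. RpS27A differed by 0.06 ± 0.04 in wild type and 0.01 ± 0.04 in the mutant. RpL40 differed by 0.06 ± 0.06 and 0.02 ± 0.06, and RpS30 by 0.01 ± 0.05 and 0.05 ± 0.05.

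**Figure D2:**
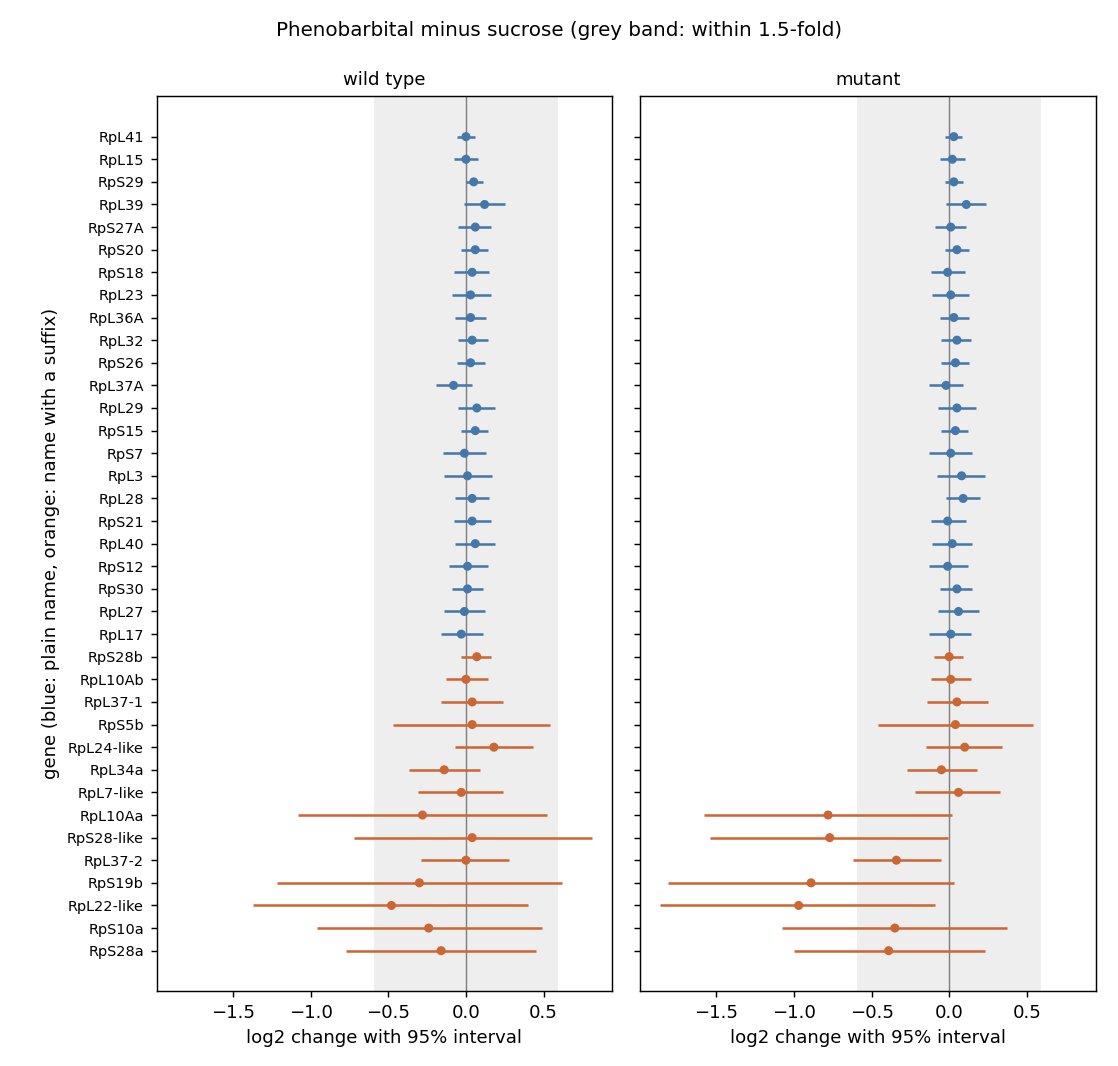
Fitted log2 change with phenobarbital (points, horizontal axis) and its 95% interval (bars) for each of the 37 genes (vertical axis), with one panel per genotype and the range within 1.5-fold shaded. All 23 plain-named genes (blue) keep their intervals inside the shading in both genotypes, and the wide intervals belong to suffix-named genes (orange) such as RpL22-like.

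The arrays of a wild-type group differed in a way shared by nearly all plain-named genes, and those of a mutant group in a way shared by fewer. Wild-type sucrose replicate 2 was the lowest array of its group for 21 of the 23 and the lowest of all 12 for 18 of them, with a median deviation of -0.15 from each gene's mean over the arrays. Mutant sucrose replicate 3 was the lowest of its group for 17 of 23. Mutant phenobarbital replicate 3 was the highest of its group for 16 and of all 12 for 14 of the 23, with a median deviation of 0.09. Wild-type phenobarbital replicate 1 was the lowest of its group for 19 of 23 and replicate 3 the highest for 22 of 23, their median deviations being -0.08 and 0.03. These median deviations are of the same size as the median differences between genotypes given below. The pattern was not particular to these genes. Ribosome biogenesis genes had their lowest mean log2 of all 12 on wild-type sucrose replicate 2 (8.17). Their highest was on mutant phenobarbital replicate 3 (8.92). Aminoacyl-tRNA synthetases did likewise (9.32 and 9.89), and translation factors did not (10.55 and 10.46). Of all 18769 probe sets, wild-type sucrose replicate 2 was the lowest of its group for 5122 and of all 12 for 2924. Mutant sucrose replicate 3 was the lowest of its group for 10791. Mutant phenobarbital replicate 3 was the highest of its group for 5529 and of all 12 for 3316. Wild-type phenobarbital replicate 1 was the lowest of its group for 5372 and replicate 3 the highest for 6245. These counts include dim probe sets. Over probe sets that are not dim, the array median was highest of its group on mutant sucrose replicate 3 (8.447). It was lowest of all 12 on wild-type phenobarbital replicate 1 (8.301) and highest on mutant phenobarbital replicate 3 (8.485). The plain-named genes thus went with the brighter probe sets on the latter 2 arrays and against them on the former.

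The mutant arrays were tighter than the wild-type arrays. The median SD of the plain-named genes was 0.082 in wild type on sucrose and 0.065 on phenobarbital, against 0.03 and 0.034 in the mutant. Over all probe sets the corresponding medians were 0.114, 0.106, 0.078 and 0.057. RpL3, a protein next to the peptidyl transferase centre, had the largest range of the plain-named genes, 0.39, from 14.21 on wild-type sucrose replicate 2 to 14.60 on mutant phenobarbital replicate 3.

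**Figure D3:**
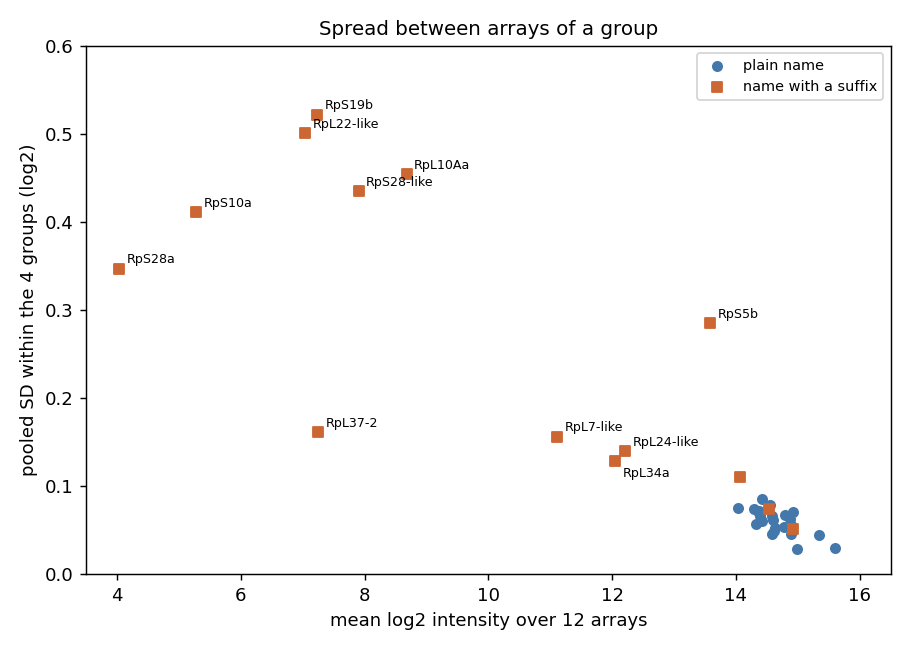
SD pooled over the 4 groups (vertical axis, log2) against mean log2 intensity over the 12 arrays (horizontal axis), with 1 point for each of the 37 genes. The plain-named genes crowd at the bright end with SDs of 0.029 to 0.086, and the suffix-named genes below log2 10 have SDs of 0.161 to 0.522.

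The suffix-named genes fell apart by brightness. Of the 14, 7 had a mean above log2 10 (RpS28b, RpL10Ab, RpL37-1, RpS5b, RpL24-like, RpL34a and RpL7-like) and 7 a mean below it (RpL10Aa, RpS28-like, RpL37-2, RpS19b, RpL22-like, RpS10a and RpS28a). The divide at log2 10 was chosen after the values were seen, and the nearest genes to it were RpL10Aa at 8.68 and RpL7-like at 11.11. The median within-group SD was 0.129 for the brighter 7 and 0.435 for the dimmer 7. RpS28a, with a mean of 4.03, stood just above the level called dim.

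The dimmer 7 moved between arrays against the brighter genes. Wild-type sucrose replicate 2 was the highest array of its group for all 7 dimmer genes and the lowest for all 7 brighter ones. Mutant sucrose replicate 3 was the highest of its group for all 7 dimmer genes and the lowest for 6 of the 7 brighter ones. Mutant phenobarbital replicate 3 was the lowest of its group for 6 of the 7 dimmer genes and the lowest of all 12 for 5 of them. Of all 18769 probe sets, wild-type sucrose replicate 2 was the highest of its group for 5039 and the lowest for 5122. Mutant sucrose replicate 3 was the highest for 4252 and the lowest for 10791. Mutant phenobarbital replicate 3 was the lowest of its group for 9100 and of all 12 for 2444. Those counts include dim probe sets. Over probe sets that are not dim, both mutant arrays had the highest median of their group (8.447 on sucrose and 8.485 on phenobarbital).

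RpL22-like, a paralog of RpL22 known in flies for its expression in the male germline, had the lowest fitted change of any of the 37 genes on phenobarbital. It read 7.14, 7.95 and 7.05 in wild type on sucrose against 7.13, 6.97 and 6.60 on phenobarbital. The mutant read 7.38, 6.87 and 8.03 on sucrose against 7.01, 6.50 and 5.84 on phenobarbital. The highest array was mutant sucrose replicate 3 and the lowest mutant phenobarbital replicate 3, and the groups overlapped in both genotypes. The wild-type value was -0.48 ± 0.39 (95% interval -1.37 to 0.40, limma adjusted p = 0.53). The mutant value was -0.97 ± 0.39 (-1.86 to -0.09, unadjusted p = 0.0344, adjusted p = 0.239). Leaving out any 1 array gave -1.26 to -0.67 for the mutant and -0.65 to -0.20 for wild type, the value of -0.20 being that without wild-type sucrose replicate 2, and no call.

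RpS19b, the copy of RpS19 known in flies for germline expression, read 7.12, 8.21 and 7.30 in wild type on sucrose and 7.58, 7.47 and 6.68 on phenobarbital. Mutant arrays read 7.57, 7.06 and 7.91 on sucrose and 7.14, 6.71 and 6.02 on phenobarbital. The groups overlapped in both genotypes. The fitted values were -0.30 ± 0.41 for wild type and -0.89 ± 0.41 for the mutant (limma adjusted p = 0.301). With 1 array left out they were -0.51 to 0.04 and -1.15 to -0.59, the wild-type value of 0.04 being that without sucrose replicate 2.

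RpL10Aa, a copy of the L1-stalk protein RpL10Ab, read 8.53, 9.60 and 8.73 in wild type on sucrose and 8.95, 8.84 and 8.23 on phenobarbital. The mutant read 9.11, 8.40 and 9.34 on sucrose and 8.40, 8.31 and 7.79 on phenobarbital, the drug arrays lying just below the sucrose arrays. The wild-type estimate was -0.28 ± 0.35 and the mutant one -0.78 ± 0.35 (limma adjusted p = 0.295). With 1 array left out the wild-type value was -0.50 to 0.04, turning without sucrose replicate 2, and the mutant value -1.06 to -0.59. Its bright partner RpL10Ab differed by 0.00 ± 0.06 and 0.01 ± 0.06.

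RpS28-like, one of 3 genes here named for the small-subunit protein RpS28, read 7.56, 8.57 and 7.59 in wild type on sucrose and 8.04, 8.30 and 7.52 on phenobarbital. Mutant arrays read 8.32, 7.75 and 8.67 on sucrose and 7.61, 7.60 and 7.21 on phenobarbital. The wild-type groups overlapped and the mutant groups did not. Wild type gave 0.04 ± 0.34 and the mutant -0.77 ± 0.34 (limma adjusted p = 0.281), and neither was called. With 1 array left out the wild-type value was -0.13 to 0.38 and the mutant value -1.02 to -0.56. The bright copy RpS28b differed by 0.07 ± 0.04 and 0.00 ± 0.04.

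RpL37-2, the dimmer of the pair named for RpL37, had the smallest unadjusted p of the 37 on phenobarbital in the mutant. It read 7.51, 7.24 and 7.52 there on sucrose and 7.25, 7.11 and 6.90 on phenobarbital, and the groups overlapped narrowly. The change was -0.34 ± 0.13 (unadjusted p = 0.0258, limma adjusted p = 0.209), and the bright RpL37-1 differed by 0.05 ± 0.09. RpS10a ranged from 4.96 to 6.21 over the arrays, its highest value being wild-type sucrose replicate 2, and differed by -0.24 ± 0.32 in wild type (0.14 without that array) and -0.35 ± 0.32 in the mutant.

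These wide intervals leave changes over 1.5-fold possible. In wild type the 95% intervals of 6 of the 14 suffix-named genes (RpL10Aa, RpL22-like, RpS10a, RpS19b, RpS28-like and RpS28a) passed 1.5-fold, and in the mutant those of 7, with RpL37-2 added. The 14 had median changes of -0.02 for wild type and -0.19 for the mutant. Without mutant sucrose replicate 3 the mutant median was -0.04, and without wild-type sucrose replicate 3 the wild-type median was -0.11. Where array weights were estimated, RpL10Aa, RpL22-like, RpS19b and RpS28-like were called lower in the mutant. Under that setting 8.43% of all probe sets were called lower too, and the weights rested mainly on 1 array, mutant sucrose replicate 1.

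Testis markers moved over the arrays with the dimmer 7 genes, and accessory gland markers, given below, were high and low on the same arrays. Of 20 testis genes listed, 18 were measured, with 2 or 3 of them (such as the meiotic-arrest genes can and aly) dim on each array. Their mean log2 level was 9.25, 9.94 and 9.40 in wild type on sucrose, 9.63, 9.50 and 9.06 on phenobarbital, 9.65, 9.23 and 9.90 in the mutant on sucrose, and 9.23, 9.10 and 8.65 on phenobarbital. Wild-type sucrose replicate 2 was highest, closely followed by mutant sucrose replicate 3, and mutant phenobarbital replicate 3 was lowest. Among the dimmer 7 genes these arrays were the highest of all 12 for 3 and 4 genes, and the lowest for 5. Over all 18769 probe sets the corresponding counts were 2710, 1215 and 2444. The summed intensity was 40100 to 67400, 33000 to 53600, 41400 to 67500 and 24000 to 37900 in those groups. The median change of the testis list was -0.16 on the drug for wild type and -0.70 for the mutant, with 0 of 18 called by limma. Its single genes ran from -0.30 to 0.33 in wild type and from -1.02 to 0.45 in the mutant.

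betaTub85D, the tubulin of the male germline, read 11.97, 12.69 and 12.17 in wild type on sucrose and 12.30, 12.12 and 11.58 on phenobarbital. In the mutant it read 12.48, 12.03 and 12.73 on sucrose and 11.76, 11.63 and 11.14 on phenobarbital. Accessory gland markers, of which 12 of 13 were measured and none was dim, also moved with the drug: all 12 were called lower on phenobarbital by limma in the mean of both genotypes, with a median change of -1.20. Their summed intensity was 88600 to 118000 in wild type on sucrose, 36600 to 65100 on phenobarbital, 84500 to 132000 in the mutant on sucrose and 33300 to 57200 on phenobarbital. Their mean log2 was highest on mutant sucrose replicate 3 (12.60) and wild-type sucrose replicate 2 (12.43). It was lowest on mutant phenobarbital replicate 3 (10.32). Muscle markers shared part of this. Their mean log2 was highest of all 12 on wild-type sucrose replicate 2 (13.43) and lowest on mutant phenobarbital replicate 3 (12.13). On mutant sucrose replicate 3, however, it was the lowest of its group (12.21). The part of these tissues in the changes of the dimmer ribosomal genes was not tested. In whole flies, fewer cells of a type and less RNA per cell cannot be told apart.

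**Figure D4:**
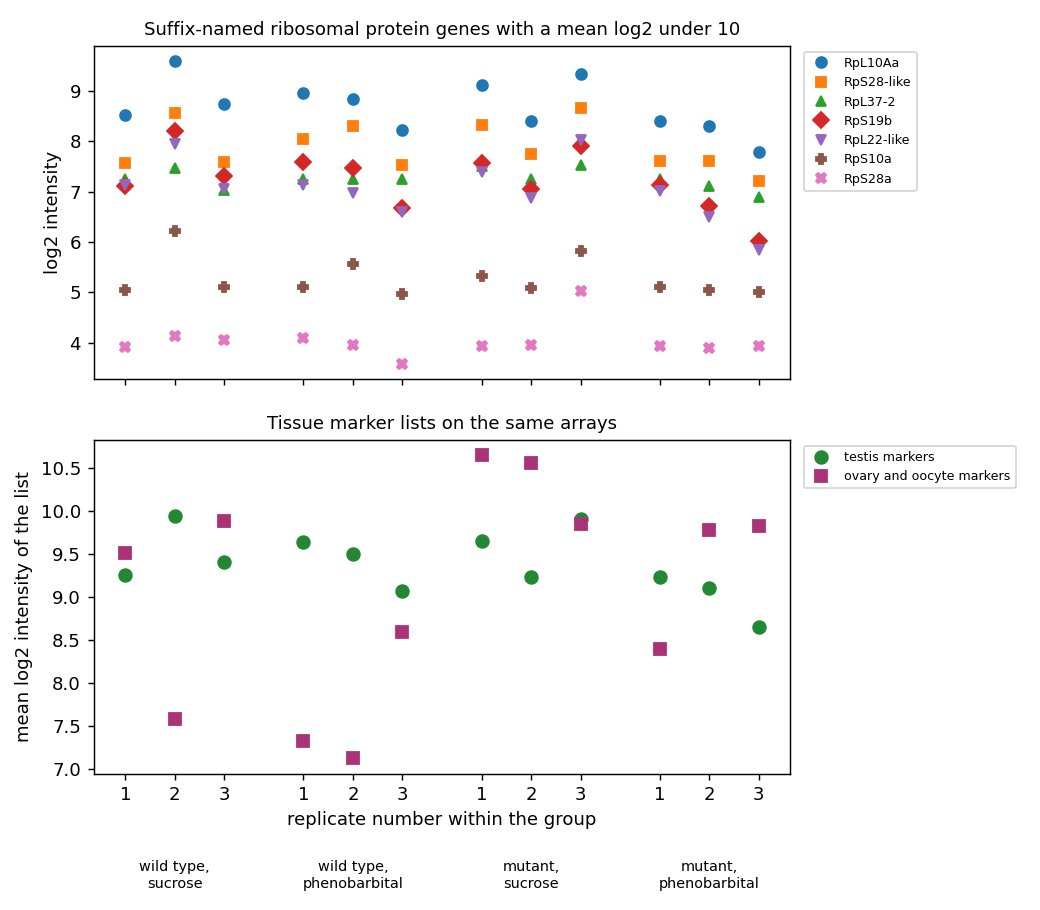
Log2 intensity on each of the 12 arrays (points, grouped along the horizontal axis by genotype and diet) for the 7 dimmer suffix-named genes in the upper panel, and the mean log2 intensity of the testis and of the ovary markers in the lower panel. RpL22-like, RpS19b and RpL10Aa are high on wild-type sucrose replicate 2 and low on mutant phenobarbital replicate 3, as are the testis markers.

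The brighter suffix-named genes behaved more like the plain-named ones. RpS5b, known in flies for expression in the female germline, was the exception in spread. It read 13.53, 12.92 and 13.78 in wild type on sucrose and 13.36, 13.18 and 13.80 on phenobarbital, and in the mutant 13.73, 13.87 and 13.59 on sucrose and 13.69, 13.74 and 13.87 on phenobarbital. Wild-type sucrose replicate 2 was lowest, and the genotypes overlapped on both diets. The difference of mutant from wild type was 0.32 ± 0.22 on each diet and the mean of both 0.32 ± 0.16 (limma adjusted p = 0.301), and phenobarbital gave 0.04 ± 0.22 in wild type. Without wild-type sucrose replicate 2 the difference on sucrose was 0.07.

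Ovary and oocyte markers, of which 23 of 25 were measured, varied over the same arrays. Their mean log2 was 9.51, 7.58 and 9.88 in wild type on sucrose, 7.32, 7.12 and 8.59 on phenobarbital, 10.65, 10.55 and 9.85 in the mutant on sucrose, and 8.39, 9.78 and 9.82 on phenobarbital, with 1 to 8 of them dim. The summed intensity ran from 65100 to 105000, 57900 to 85300, 98100 to 136000 and 94900 to 120000. The list holds the yolk protein genes Yp1, Yp2 and Yp3. Yp1, at log2 14.64 to 15.12 over the arrays, is also on the fat body and gut list, so this sum is not of ovary alone. The oocyte determinant osk read 12.39, 11.80 and 12.74, then 12.06, 11.91 and 12.48, then 12.61, 12.53 and 12.00, then 12.23, 12.29 and 12.65 in the same order of groups. Single markers differed on wild-type sucrose replicate 2. In that group Yp1 (14.78, 14.64 and 14.93) and Cp18 (9.08, 2.63 and 12.57) were lowest there, like osk. Vm26Aa (8.82, 12.04 and 10.48) and grk (7.72, 7.96 and 7.82) were highest there. On phenobarbital limma called 2 of the 23 lower in wild type, 2 in the mutant and 3 in the mean of both. The shares over all probe sets were 2%, 1.53% and 2.69%. The part of ovary content in the values of RpS5b was not tested.

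RpL24-like and RpL7-like, whose yeast relatives Rlp24 and Rlp7 act in assembly of the large subunit rather than in the finished ribosome, did not move past the threshold. RpL24-like read 12.23, 11.75 and 12.08 in wild type on sucrose and 12.10, 12.19 and 12.31 on phenobarbital, a change of 0.18 ± 0.11 and the largest positive one on the drug in wild type. RpL7-like read 10.77, 10.97 and 11.19 in wild type and 11.20, 11.26 and 11.29 in the mutant on phenobarbital. Those groups did not overlap, and the difference was 0.27 ± 0.12 (limma adjusted p = 0.371).

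The comparison of mutant with wild type gave 0 calls among the 37 genes on either diet. On sucrose limma called 0 higher and 0 lower, against 0.0586% and 0.155% of all probe sets, with 6 of the 37 and 1817 of all probe sets at an unadjusted p under 0.05. On phenobarbital it again called 0 and 0, against 0.0746% and 0.0426%, with 8 of the 37 and 2151 of all probe sets under 0.05. With so few calls over the whole array, the count of 0 says little about these genes. Averaged over both diets 0 were called, against 0.165% higher and 0.293% lower of all probe sets, with 17 of the 37 and 3506 of all probe sets under 0.05.

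The plain-named genes leaned towards higher levels in the mutant by small amounts in the deposited scaling; on phenobarbital their median was 0.00 once array medians were set equal, a scaling that moves every gene of an array alike. On each diet 21 of the 23 had a fitted difference above 0, and the median was 0.09 on sucrose and 0.10 on phenobarbital, against -0.01 and -0.02 over all probe sets. Where the arrays were instead set to an equal median over probe sets that are not dim, the plain-named medians were 0.06 and 0.00, and the median of all 37 genes on phenobarbital was -0.03 in place of 0.07. All probe sets then had a median of -0.11 on phenobarbital. Relative to all probe sets, the plain-named median was 0.10 higher on sucrose and 0.12 higher on phenobarbital, and that of all 37 genes 0.10 and 0.09 higher. Setting array medians equal cannot alter these gaps, since it moves each array as a whole, so their sameness is no support. The gaps are also measured from a background that includes dim probe sets. Over probe sets that are not dim, the deposited array medians on phenobarbital were themselves higher in the mutant. They were 8.301 to 8.445 in wild type and 8.447 to 8.485 in the mutant. With quantile normalization the plain-named medians were 0.09 on sucrose and 0.05 on phenobarbital, and those of all 37 genes 0.10 and 0.03. All probe sets then had a median of 0.00 on each diet. All 23 intervals lay within 1.5-fold on both diets, their ends reaching from -0.14 to 0.34. Ovary and oocyte markers had a median difference of mutant from wild type of 0.63 on sucrose and 0.56 on phenobarbital. Limma called 0 of 23 on either diet and 1 higher in the mean of both, against 0.165% of all probe sets. The part of these markers in the lean was not tested.

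RpS27A, the ubiquitin fusion of the small subunit, had the smallest adjusted p of the 37 for genotype averaged over both diets. It read 14.78, 14.70 and 14.90 in wild type and 14.95, 14.96 and 14.93 in the mutant on sucrose, and 14.82, 14.83 and 14.90 against 14.98, 14.92 and 14.97 on phenobarbital. The mutant arrays were the higher on both diets, with no overlap. The differences were 0.15 ± 0.04 (limma adjusted p = 0.263) and 0.11 ± 0.04 (adjusted p = 0.371), and their mean was 0.13 ± 0.03 (unadjusted p = 0.00297, adjusted p = 0.108).

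RpL17, at the exit tunnel, read 13.96, 13.91 and 14.06 in wild type and 14.16, 14.14 and 14.05 in the mutant on sucrose. On phenobarbital it read 13.87, 13.93 and 14.06 against 14.06, 14.13 and 14.19. The groups overlapped narrowly on sucrose and not on the drug, and the mean difference was 0.16 ± 0.04 (limma adjusted p = 0.127). RpL36A, a large-subunit protein at the exit site for tRNA, had a mean difference of 0.12 ± 0.03 (adjusted p = 0.116).

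RpL3 read 14.32, 14.21 and 14.50 in wild type and 14.46, 14.51 and 14.43 in the mutant on sucrose, which overlap. On phenobarbital it read 14.32, 14.31 and 14.42 against 14.51, 14.52 and 14.60, a difference of 0.19 ± 0.07 (limma adjusted p = 0.371). A second probe set of RpL3, described below, did not show this difference (0.00 ± 0.17). RpS21 differed by 0.16 ± 0.05 on sucrose (adjusted p = 0.33), and RpL41 and RpL15 by -0.03 ± 0.03 and 0.00 ± 0.04.

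On sucrose 10 of the 37 genes lay wholly higher in the mutant and 0 wholly lower, where 5.51% and 10.9% of the probe sets that are not dim did so. On phenobarbital 10 lay wholly higher and 0 wholly lower, against 17.6% and 8.14%. RpL28, RpL36A, RpL37-1, RpS12 and RpS27A were the 5 that lay wholly higher on both diets. The share of all probe sets that did so on both diets was not counted, so this 5 has no background beside it. RpS12, which in flies takes part in sensing ribosomal protein shortage in cell competition, differed by 0.12 ± 0.06 and 0.10 ± 0.06. The deviations of wild-type sucrose replicate 2 and mutant phenobarbital replicate 3 described above lie in the same directions as these differences, and their part in these counts was not tested. With any 1 array left out, the plain-named median difference was 0.05 to 0.11 on sucrose and 0.06 to 0.11 on phenobarbital.

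**Figure D5:**
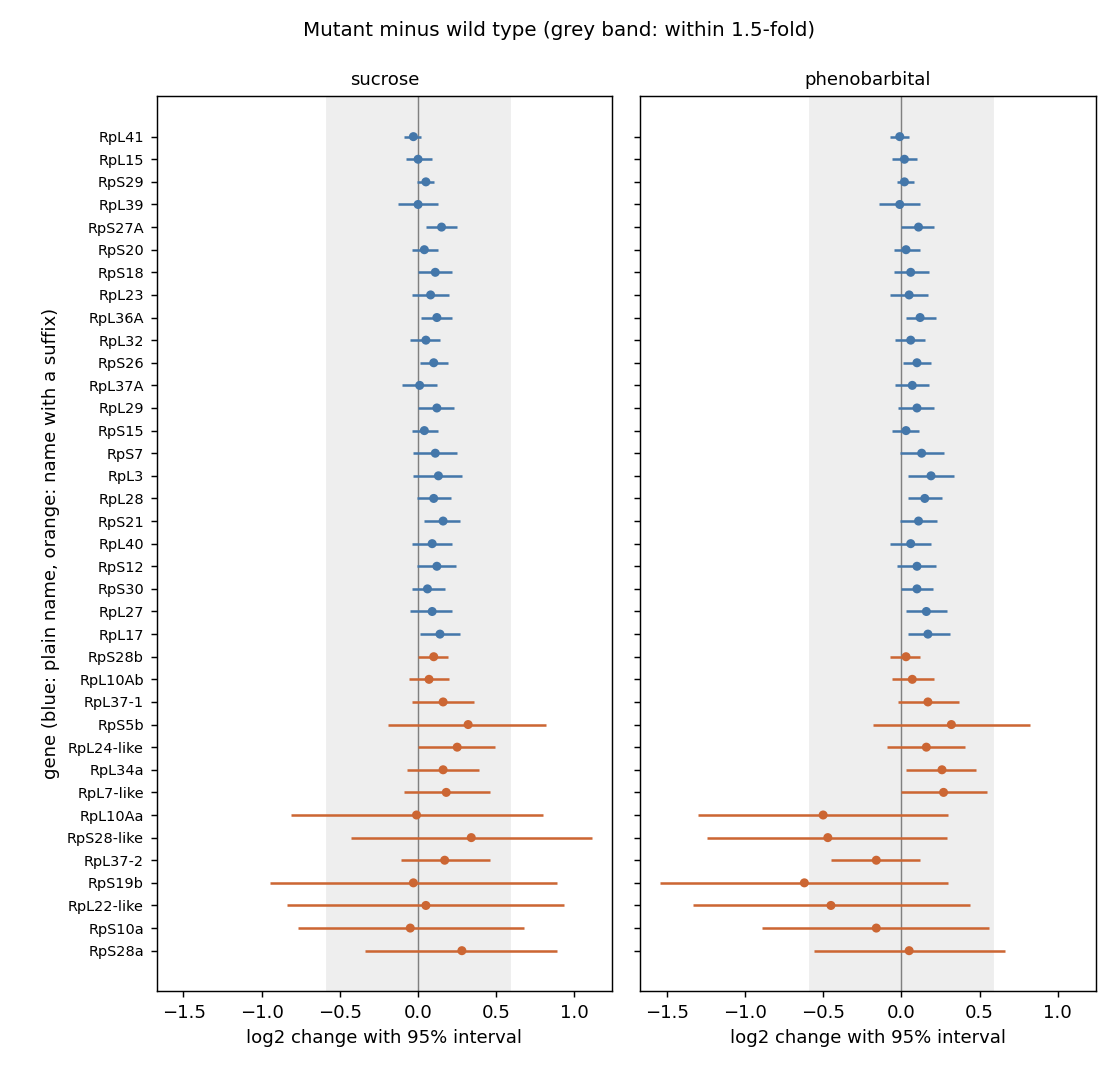
Fitted log2 difference of mutant minus wild type (points, horizontal axis) with its 95% interval (bars) for the 37 genes (vertical axis), on sucrose and on phenobarbital, with the range within 1.5-fold shaded. On each diet 21 of the 23 plain-named genes (blue) lie above 0 in the deposited scaling (with equal array medians their median on phenobarbital is 0.00), and all keep their intervals inside the shading.

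The drug response did not differ between the genotypes past the threshold for any of the genes. The interaction gave 0 calls among the 37 and 0% over all probe sets by limma, with 0 of the 37 and 624 of all probe sets at an unadjusted p under 0.05. The fitted differences of the plain-named genes ran from -0.05 to 0.07, and the ends of their intervals from -0.22 to 0.28. The difference largest in size was that of RpS28-like, at -0.82 ± 0.48 (95% interval -1.90 to 0.27, adjusted p = 0.841). RpL22-like differed by -0.49 ± 0.55 (adjusted p = 0.841).

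For 4 of the genes a choice of probe set was made, since RpL3 and RpS29 have 3 each and RpS7 and RpS30 have 2 each. The second probe set of RpL3 did not match the one used. It read 8.55, 8.21 and 8.39 in wild type on sucrose and 8.48, 8.80 and 9.22 on phenobarbital, and in the mutant 8.32, 8.19 and 8.01 on sucrose and 8.86, 8.76 and 8.89 on phenobarbital. The mutant groups did not overlap, and the mean change with phenobarbital was 0.56 ± 0.12 (limma adjusted p = 0.0185), which is past the p threshold and under 1.5-fold. The probe set used gave 0.04 ± 0.05 for the same quantity. For mutant against wild type the second set gave -0.21 ± 0.17 on sucrose and 0.00 ± 0.17 on phenobarbital. The set used gave 0.13 ± 0.07 and 0.19 ± 0.07. Which transcripts the dimmer set reads was not analysed here, and near-identical copies of these genes can share probes.

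Few calls were made among the other translation genes measured, where the shares over all probe sets given above leave few to be counted in lists of these sizes. Limma called 0 of 4 ribosomal stalk genes, 0 of 69 mitochondrial ribosomal protein genes, 0 of 46 translation factors, 0 of 16 aminoacyl-tRNA synthetases, 0 of 38 ribosome biogenesis genes and 0 of 11 genes for factors of ribosomal protein promoters and ribosome shortage, in each of the comparisons. The mean difference of mutant from wild type had a median of 0.08 over the 37 ribosomal protein genes, 0.09 over the stalk genes, 0.15 over the mitochondrial ribosomal proteins and 0.31 over ribosome biogenesis, against -0.01 over all probe sets. With equal array medians these were 0.02 for the 37 genes, 0.03 for the stalk genes, 0.09 for the mitochondrial ribosomal proteins, 0.25 for biogenesis and -0.08 for all probe sets.

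Of 21 growth and TOR pathway genes, 1 was called, in 1 comparison. S6k, the kinase that phosphorylates the small-subunit protein RpS6 downstream of TOR, averaged log2 10.27 ± 0.10 (SD, n = 3) in wild type on sucrose and 9.62 ± 0.09 on phenobarbital. It fell by 0.65 ± 0.10 (SE, limma adjusted p = 0.00518) in wild type. In the mutant it averaged 9.88 ± 0.21 and 9.45 ± 0.08, a difference of -0.43 ± 0.10 (adjusted p = 0.0413) that is under 1.5-fold, and the interaction was 0.22 ± 0.15 (adjusted p = 0.841). mTor, the kinase above it, differed by -0.02 ± 0.19 in wild type and 0.37 ± 0.19 in the mutant, neither called.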

How the data were processed

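Total RNA of adult flies had been measured on 12 arrays in 4 groups of 3. The deposited values are intensities per probe set, which the authors normalized with GCRMA per the submitters' processing notes, with its version not given in the sources used here. They were read as linear from their range, log2 was taken here, and no array was rescaled. No depth applies, and the number of arrays limits the precision.

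Probe sets were named from the platform annotation: 13647 name 1 gene, 402 several and 4720 none. Limma 3.58.1 (R 4.3.3) was fitted to all 18769 probe sets with 1 mean per group (8 residual and 0.8 prior degrees of freedom), and Python 3.11.15 with pandas 2.3.3 made the summaries. The fit was tested on simulated data. Calls needed an adjusted p under 0.05 and 1.5-fold.

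The ribosomal genes, the comparison and marker lists and the tests were chosen with earlier results of these data known. Named genes were the brightest, dimmest, most and least variable, the paralogs and the 4 with the largest changes in each direction and comparison. Of other lists, called genes and a few fixed regulators were eligible, of which Thor, Myc and Xrp1 were not analysed here. Muscle, fat body and gut markers were measured and are given with the limits, and muscle also beside the accessory gland markers. Replicate numbers were not taken as pairs, because same-numbered arrays did not deviate together (r -0.669 to 0.648 over 18 pairs). Sequences were not used here.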

Additional observations from a re-analysis of the deposited data

How the results depend on the processing

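The alternatives were no minimum fold and 2-fold, a trended robust prior, quantile normalization, equal array medians, only probe sets that are not dim, estimated array weights, a replicate block, each array left out, pairwise fits, the mean of a gene's probe sets, and members restricted to single-copy or not dim. Of 864 recomputed counts and medians, 845 kept their count or moved by less than the spread between arrays, 17 medians moved by more and 2 counts rose. Of 425 recomputed medians, 21 had the opposite sign, most of them within that spread of 0. Of 3040 recomputed changes of single genes, 2967 stayed within the spread or kept their call, 69 moved by more and 4 became calls. With equal array medians the genotype difference on phenobarbital had a median of -0.03 over the 37 genes, 0.00 over plain-named and -0.06 over suffix-named genes; the interaction had -0.07, -0.05 and -0.16, and the mean genotype difference 0.02, 0.02 and 0.00. With array weights 4 genes were called lower on phenobarbital in the mutant (RpL10Aa -0.83, RpL22-like -0.85, RpS19b -0.84 and RpS28-like -0.75) and 1 in the mean of both genotypes, where 8.43% and 4.48% of all probe sets were called lower, the suffix-named median in the mutant was -0.07, and the interaction medians were -0.07, -0.06 and -0.16. The weight of mutant sucrose replicate 1 was 104 and those of the others 0.282 to 6.37. Leaving out each array in turn gave 0 calls. The suffix-named median was then -0.11 to 0.00 with phenobarbital in wild type, -0.24 to -0.04 in the mutant, -0.03 to 0.06 for genotype on phenobarbital and -0.19 to -0.08 for the interaction. With the replicate block 0 of the 37 genes were called in each comparison, and 31 (wild type) and 30 (mutant) intervals with phenobarbital lay within 1.5-fold, so the block changed no call. Same-numbered arrays correlated at -0.669 to 0.648 and others at -0.748 to 0.644. The causes of these moves were not tested, except that mutant sucrose replicate 1 dominates the weights. Muscle markers (12 of 15 measured) had 2 genes called lower in the mutant over both diets, and fat body and gut markers (11 of 13) had 2 called higher and 4 lower on phenobarbital over both genotypes, their part in the values of the ribosomal genes being not tested. RpS28a, with a mean log2 of 4.03, was the one gene of the 37 with signal near the dim level.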
